A study of Chlorocebus aethiops with 24 samples.

Results

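The genes described here run the membrane traffic of the cell. They are the RAB GTPases, synaptotagmins, syntaxins, syntaxin-binding proteins, VAMP and SNAP proteins, VPS proteins, sorting nexins, synapsins and UNC13 proteins, and they were taken by symbol from the annotation of the array. A probe set was included when the annotation gave it a single symbol that began with RAB, SYT, STX, VAMP, SNAP, VPS or SNX and a number, with STXBP or UNC13, or was a synapsin. The rule used names only and no measured value. It found 102 probe sets for 94 symbols among the 11512 probe sets of the table, of which 8730 had 1 symbol. RAB4A, RAB5C, RAB8B, SNX17, SNX18, SNX25, VPS54 and VPS9D1 had more than 1 probe set. SNAP25, VAMP1, VAMP2, STX1A, the synapsins, UNC13A, RAB5A, RAB11A and VPS35 had no probe set under this rule and were not analysed here, so most of the core of the synaptic release machine lies outside these values.

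RNA came from 22 male vervet monkeys, from the hippocampus of the left side, and each animal had 1 array of a type designed for the rhesus macaque. FASD animals were born to dams that drank alcohol by choice late in pregnancy, and control animals to dams given sucrose in its place. By the paper's methods, the dams of both groups preferred alcohol. There were 5 FASD animals and 6 controls at 2 years of age, and 5 FASD animals and 6 controls at 5 months. The FASD animals had no facial malformation or growth deficit, and the tissue is the whole structure with all of its cell types. The paper states that, in the authors' earlier anatomical studies, such exposure left far fewer hippocampal CA1 neurons at 2 years. Neuron number was not measured here. Control animal 6 of the 5-month group carries conflicting labels. Its source name gives the older age and its other labels the younger one, and it was kept at 5 months. Probes were made for another species, so a level on this array also depends on how well the vervet transcript binds, and no probe set was set against another.

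A transport vesicle buds from one membrane, is carried to the next, is held there by tethers and then fuses. RAB GTPases mark each compartment and recruit tethers and motors, SNARE proteins pull the membranes together, SM proteins guide the SNAREs, and synaptotagmins couple fusion to calcium. Sorting nexins, retromer and Retriever return cargo from endosomes, ESCRT complexes send it to the lysosome, and VPS13 proteins pass lipids between organelles. In hippocampal neurons these steps set transmitter release and the supply of receptors to synapses, while the same families serve glia and vessels.

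The arrays were alike over all probe sets, with Pearson's r between 0.972 and 0.995 for pairs of arrays. FASD animal 2 at 5 months had the lowest mean correlation with the others, at 0.979, and FASD animal 2 at 2 years had 0.984. The first of these also stood apart in cell type markers. Its mean deviation from the probe set means was -0.61 on the log2 scale for pyramidal neuron markers, of which 4 of 9 had a probe set (NEUROD6, NRGN, PROX1 and ZBTB20), and 0.84 for mural cell and fibroblast markers, of which 5 of 10 had one. FASD animal 2 at 2 years had -0.57 for the pyramidal markers. Control animal 2 at 2 years had -0.25 for them. The part of these differences in the results below was not tested.

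Averaged over both ages, the trafficking genes of FASD and control hippocampi lay close together. Of the 102 probe sets, 101 had an alcohol difference, FASD minus control, smaller than 0.25 on the log2 scale, beside 98.1% of all probe sets. The median difference was 0.0040, against -0.0069 over all probe sets. With limma, 0 probe sets passed a Benjamini-Hochberg adjusted p of 0.05, and the lowest adjusted p was 0.579. An analysis of variance with both factors, which the methods name, also gave 0, with a lowest adjusted p of 0.588. At an unadjusted p under 0.05 there were 8 trafficking probe sets, or 7.84%, beside 8.44% of all probe sets tested, so the share was near the background. Of the 8, 4 were higher and 4 lower in FASD animals, whereas of all probe sets 2.43% were higher and 6.01% lower. That split depended on the scaling. When each array was centred on its median, 10 were higher and 2 lower, or 11.8%, beside 8.18% of all probe sets. After quantile normalization 11 were higher and 2 lower, or 12.7%, beside 8.45% of all. Of all probe sets at that threshold, 48.5% and 48.3% were then lower, against 71.2% with the values as deposited. Each scaling shared 6 trafficking probe sets with the values as deposited. Of the 8 probe sets with the values as deposited, only RAB11FIP2 lay at or above the median intensity of all probe sets.

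The intervals show what size of difference these arrays could miss. For alcohol the median standard error was 0.0628, which gives a 95% interval of 0.130 to each side. The whole interval lay within 0.25 of no difference for 76 of the 102 probe sets and within 0.5 for 101. In bulk tissue fewer cells of a type and less RNA per cell cannot be told apart, and this holds for every difference below.

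**Figure D1:**
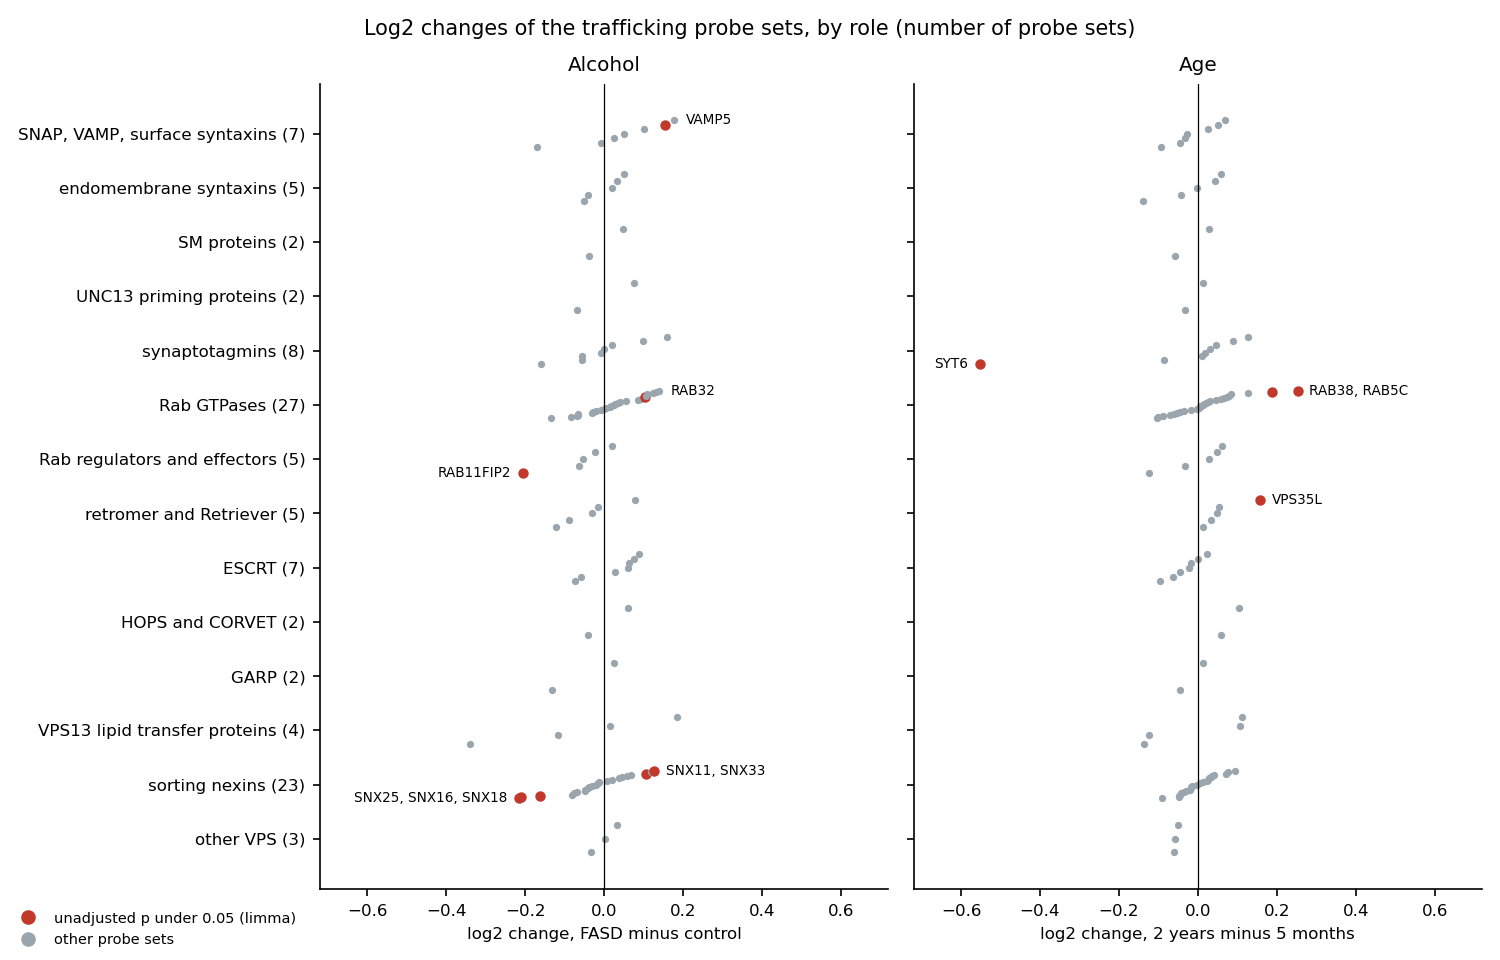
Each point is 1 trafficking probe set, placed by its log2 change for alcohol (left, FASD minus control) or for age (right, 2 years minus 5 months) and grouped by role, with the number of probe sets in parentheses. Red points with names had an unadjusted limma p under 0.05. Nearly all points lie within 0.25 of zero on both sides, and SYT6 at -0.55 for age lies farthest out.

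Among the SNAREs, the SNAP, VAMP and surface syntaxin group had 7 probe sets and a median alcohol difference of 0.05. VAMP5, a VAMP best known from muscle, was the only one of them at an unadjusted p under 0.05. Its log2 values were 7.75, 7.89, 7.65, 7.84 and 7.90 in FASD animals at 2 years, against a lowest, median and highest of 7.45, 7.65 and 7.89 in controls. At 5 months they were 8.29, 7.76, 7.74, 7.80 and 7.61 in FASD animals, against 7.58, 7.69 and 7.81 in controls. The groups overlapped at both ages, and the highest value was that of FASD animal 2 at 5 months. The difference was 0.15 (standard error 0.07, unadjusted p = 0.034, limma), and it missed the unadjusted threshold in 7 of the 22 fits that each left out 1 array, with 0.10 as the lowest difference, without that animal. STX3, a syntaxin of the plasma membrane, had 0.10 (standard error 0.05, unadjusted p = 0.067, limma). The 5 syntaxins of inner membranes (STX5, STX8, STX10, STX12 and STX18) had differences between -0.05 and 0.05 and none reached the unadjusted threshold, and neither did the 2 SM proteins, STXBP3 at 0.05 and VPS33B at -0.04.

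The calcium sensors were near zero as a group, with a median of -0.0049 over 8 synaptotagmins and 0 at the unadjusted threshold. SYT1, the fast calcium sensor of transmitter release, had log2 values of 13.08, 12.80, 13.09, 13.10 and 13.13 in FASD animals at 2 years, against 12.85, 13.05 and 13.16 (lowest, median and highest) in controls. At 5 months it had 12.82, 12.99, 13.01, 12.94 and 12.97 in FASD animals, against 12.85, 13.04 and 13.21 in controls. The groups overlapped at both ages, with the lowest FASD value below every control at each. At 5 months all FASD values lay below the control median. The alcohol difference of SYT1 was -0.06 with a 95% interval of -0.17 to 0.05. SYT3 and SYT4, which act away from fast release, had 0.16 and -0.16 with standard errors of 0.09 and 0.08. UNC13B, which primes vesicles, had -0.07, and its relative UNC13D, a priming protein of blood cells, had 0.08.

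Of the 27 probe sets for RAB GTPases, 1 was at the unadjusted threshold for alcohol, and their median was 0.02. That was RAB32, which serves lysosome-related organelles and mitochondria. Its log2 values were 6.26, 6.32, 6.25, 6.10 and 6.41 in FASD animals at 2 years, against 6.13, 6.20 and 6.29 in controls. At 5 months they were 6.36, 6.39, 6.17, 6.23 and 6.38, against 6.08, 6.16 and 6.25 in controls. At 5 months 3 of 5 FASD animals lay above every control, and at 2 years FASD values lay on both sides of the control range. The difference was 0.10 (standard error 0.04, unadjusted p = 0.024, limma), and without FASD animal 6 at 2 years it had an unadjusted p of 0.057. With array weights it was 0.08 (unadjusted p = 0.078, limma).

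RAB3A, the GTPase of synaptic vesicles, had an alcohol difference of 0.10 with a 95% interval of -0.01 to 0.22. RAB7A, which marks late endosomes, had 0.04 with an interval of -0.08 to 0.15. Both are compartment markers of long standing, and neither interval reached a change of 0.25. Among proteins that regulate or read RABs, RAB11FIP2, which ties recycling endosomes to a myosin motor, had -0.21 (standard error 0.10, unadjusted p = 0.044, limma). Its log2 values were 8.58, 7.95, 8.76, 8.84 and 8.72 in FASD animals at 2 years, against 8.47, 8.83 and 8.95 in controls. At 5 months they were 8.28, 8.82, 8.77, 8.64 and 8.87, against 8.72, 8.91 and 9.05 in controls. The lowest FASD value at each age came from animal 2. It missed the unadjusted threshold in 12 of the 22 fits that each left out 1 array, with a difference between -0.24 and -0.13.

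The sorting nexins held 5 of the 8 probe sets at the unadjusted threshold for alcohol. That is 21.7% of their 23 probe sets, against 3.8% of the 79 other trafficking probe sets and 8.44% of all probe sets, which is given as a description only. With 1 probe set per symbol, the brightest, 3 nexins were at that threshold, SNX33, SNX11 and SNX16. The 5 did not run one way, and the median of the group was -0.02. SNX18 and SNX33 are close relatives that bend membranes and carry an SH3 domain, and they had opposite signs.

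SNX18 had the lowest p of all trafficking probe sets for alcohol. Its probe set MmugDNA.7726.1.S1_at read 6.85, 6.98, 7.02, 6.81 and 7.11 in FASD animals at 2 years, against a lowest, median and highest of 7.05, 7.20 and 7.29 in controls. At 5 months it read 7.19, 6.99, 6.99, 7.07 and 7.03 in FASD animals, against 6.97, 7.13 and 7.43 in controls. At 2 years 4 of 5 FASD animals lay below every control, and at 5 months the groups overlapped. The alcohol difference was -0.16 with a 95% interval of -0.27 to -0.05 (unadjusted p = 0.0061, adjusted p = 0.579, limma), and it kept an unadjusted p under 0.05 in each of the 22 fits that left out 1 array. The second SNX18 probe set did not show it. MmugDNA.42636.1.S1_at had -0.02, with an interval of -0.15 to 0.12.

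SNX33 read 7.19, 7.46, 7.40, 7.20 and 7.32 in FASD animals at 2 years, against 7.01, 7.17 and 7.33 in controls. At 5 months it read 7.35, 7.19, 7.41, 7.42 and 7.30, against 7.02, 7.25 and 7.34 in controls. The groups overlapped at both ages. The difference was 0.13 (standard error 0.05, unadjusted p = 0.024, limma), and without FASD animal 2 at 2 years the unadjusted p was 0.052. SNX11, a small nexin of endosomes, read 7.76, 7.71, 7.82, 7.80 and 7.75 in FASD animals at 2 years, against 7.45, 7.59 and 7.85 in controls. The FASD values sat close together, and the highest control value was that of animal 2. At 5 months SNX11 read 7.67, 7.61, 7.70, 7.77 and 7.66, against 7.46, 7.66 and 7.74 in controls. Its difference over both ages was 0.11 (standard error 0.05, unadjusted p = 0.035, limma), and it missed the unadjusted threshold in 9 of the 22 fits.

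SNX16 is a nexin of early and late endosomes, and SNX25 belongs to the nexins with an RGS domain and is known from the breakdown of a TGF-beta receptor. SNX16 read 5.28, 4.69, 5.37, 5.13 and 5.25 in FASD animals at 2 years, against 5.05, 5.29 and 5.78 in controls, and 5.06, 4.86, 5.10, 5.14 and 5.05 in FASD animals at 5 months, against 5.09, 5.22 and 5.69 in controls. At 5 months 3 of 5 FASD animals lay below every control. The difference of SNX16 was -0.21 (standard error 0.09, unadjusted p = 0.027, limma). It missed the unadjusted threshold when any of 4 animals was left out, animal 3 of either 5-month group, FASD animal 2 at 2 years or control animal 5 at 2 years, with a highest unadjusted p of 0.069 (limma). SNX25 had -0.22 (standard error 0.10, unadjusted p = 0.048, limma) in one probe set, MmugDNA.10029.1.S1_at, and -0.03 in the other, MmugDNA.35178.1.S1_at. The first missed the threshold in 16 of the 22 fits, and its lowest value, 5.96, was that of FASD animal 2 at 2 years.

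**Figure D2:**
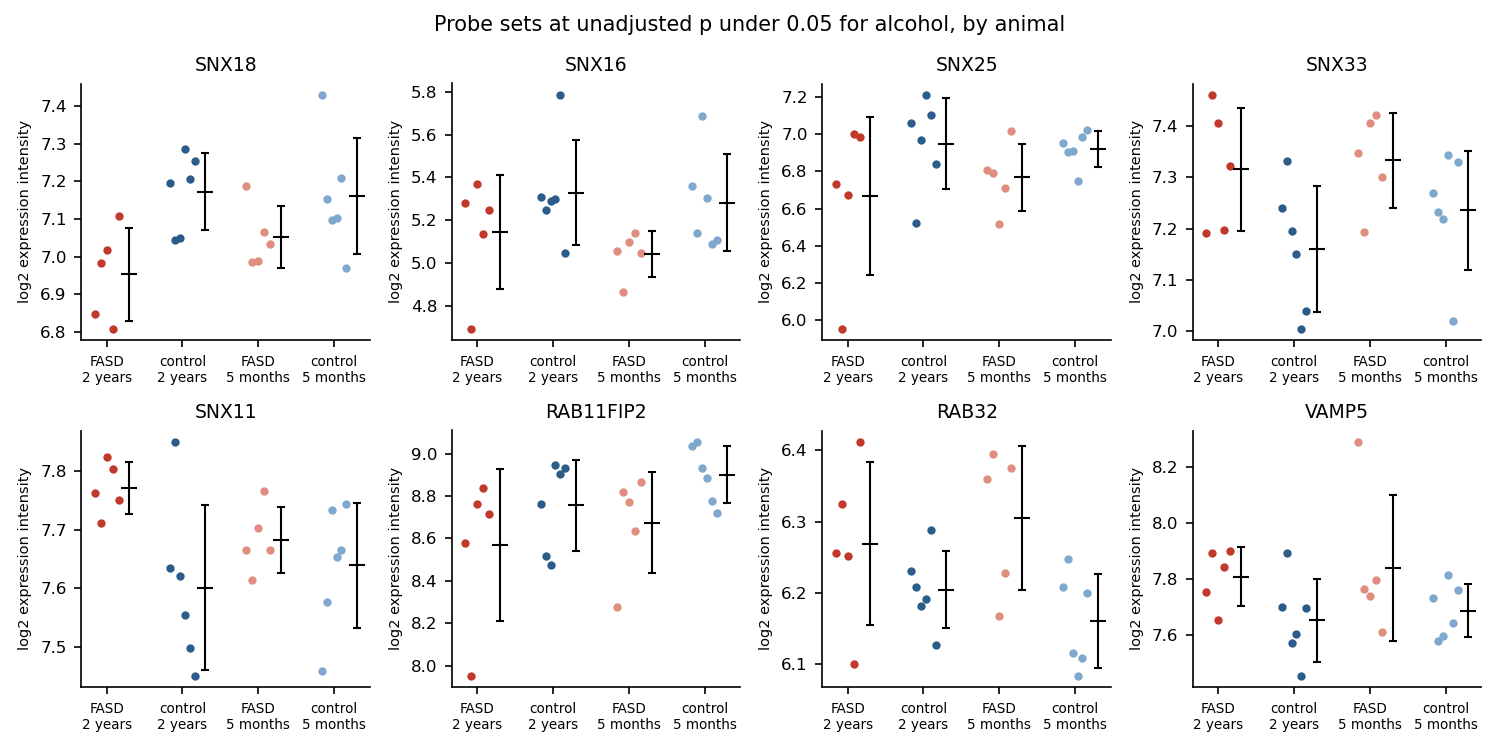
Log2 expression intensity of the 8 trafficking probe sets at unadjusted p under 0.05 for alcohol, 1 point per animal, with the mean and SD of each group beside the points. SNX18, SNX16, SNX25 and RAB11FIP2 have lower FASD means at both ages and SNX33, SNX11, RAB32 and VAMP5 have higher ones, with overlap between FASD and control animals in every panel.

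The retromer and Retriever subunits, which pull cargo out of endosomes, had 5 probe sets between -0.12 and 0.08 for alcohol, and the 7 ESCRT probe sets lay between -0.07 and 0.09. None of these reached the unadjusted threshold. The tethers of late endosomes and the Golgi (VPS39, VPS8 and VPS54) also had none. VPS13C, a lipid transfer protein at contacts of the endoplasmic reticulum with late endosomes, had the largest alcohol difference in size, -0.34, and also one of the largest spreads. It read 8.44, 7.87, 9.41, 9.28 and 9.37 in FASD animals at 2 years, against 8.74, 9.10 and 10.003 in controls, and 8.61, 8.72, 9.35, 9.02 and 9.48 in FASD animals at 5 months, against 9.21, 9.35 and 9.44 in controls. The FASD animals ranged widely at both ages, the 5-month controls did not, and the groups overlapped. The 95% interval was -0.70 to 0.02 (unadjusted p = 0.062, limma).

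Within each age the alcohol difference was less precise, with a median standard error of 0.0888. At 2 years 8 trafficking probe sets, or 7.84%, had an unadjusted p under 0.05, against 6.05% of all probe sets. Of them 5 were higher and 3 lower, beside 2.69% higher and 3.35% lower of all. The lowest adjusted p was 0.793 (limma). At 5 months there were 4, or 3.92%, against 4.83% of all. Of them 3 were higher and 1 lower, beside 1.47% higher and 3.36% lower of all, and the lowest adjusted p was 0.932 (limma). In both, 0 probe sets passed the adjusted threshold, by limma and by the analysis of variance. The median difference over the 102 probe sets was 0.04 at 2 years, against 0.01 over all probe sets, and -0.01 at 5 months, against -0.03 over all. No trafficking probe set had FASD and control animals that did not overlap, at 2 years, where 0.313% of all probe sets did, or at 5 months, where 0.443% did. The exact tests below are two-sided permutation tests over animals, 176 of them in all, and are not adjusted.

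At 2 years SNX18 had a difference of -0.22 (exact permutation p = 0.015), and SNX11 had 0.17 (exact permutation p = 0.039). RAB23, which restrains hedgehog signalling, had -0.28 (exact permutation p = 0.046), and without FASD animal 2 it had -0.24 (unadjusted p = 0.055, limma). RAB8B, which drives vesicles from the Golgi to the surface, had 0.16 in one probe set (exact permutation p = 0.039) and 0.07 in the other. RAB30, a Golgi GTPase, had -0.26 (unadjusted p = 0.038, limma), with 7.28, 7.03, 7.11, 7.43 and 7.21 in FASD animals, against 6.94, 7.50 and 7.85 in controls, which overlapped. SNX15, SNX33 and a RAB5C probe set were also at the unadjusted threshold, each higher in FASD animals. The count at 2 years moved with single controls, and so did the share of all probe sets. The count was 18 without control animal 2, where all probe sets gave 14.5%. Without control animal 5 it was 5 (3.98% of all), and without control animal 6 it was 3 (3.43% of all). Endothelial markers, 3 of 7 with a probe set, had mean deviations of 0.07 to 0.28 in FASD animals at 2 years, against -0.35 to 0.15 in controls, and neuronal markers, 5 of 11 with a probe set, had 0.04 to 0.10, against -0.42 to 0.17. The part of these differences in the trafficking values was not tested.

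At 5 months VPS36 and VPS13B had the lowest exact p. VPS36 is a subunit of ESCRT-II, which sorts tagged receptors into endosomal vesicles. It read 8.06, 8.34, 8.46, 8.40 and 8.38 in FASD animals, against 8.45, 8.48 and 8.55 (lowest, median and highest) in controls, so 4 of 5 FASD animals lay below every control. The difference was -0.16 (exact permutation p = 0.0043), but limma, which pools the spread of all 4 groups, gave an unadjusted p of 0.059. Without FASD animal 2 it was -0.10 (unadjusted p = 0.23, limma), and without FASD animal 2 at 2 years, which enters only through the pooled spread, the unadjusted p was 0.015 (limma). VPS13B, a lipid transfer protein of the Golgi, read 6.54, 7.06, 7.20, 7.10 and 7.07 in FASD animals, against 7.14, 7.20 and 7.26 in controls. Here too 4 of 5 FASD animals lay below every control, and the difference was -0.21 (exact permutation p = 0.0087). Without FASD animal 2, whose 6.54 was the lowest, it was -0.10 and missed the unadjusted threshold, as it did with array weights (unadjusted p = 0.051, limma).

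VPS26A, the arrestin-like subunit of retromer, had -0.13 at 5 months (exact permutation p = 0.028), also with 4 of 5 FASD animals below every control. For VPS26A limma gave an unadjusted p of 0.061, and without FASD animal 2 the difference was -0.07 (unadjusted p = 0.24, limma). RAB32 had 0.14 (exact permutation p = 0.030), and without that animal 0.13 (unadjusted p = 0.055, limma). SNX31, a relative of the integrin-recycling nexin SNX17, had 0.25 (exact permutation p = 0.035), and without that animal 0.15 (unadjusted p = 0.16, limma). RAB5C had 0.23 in the probe set MmunewRS.990.1.S1_at (unadjusted p = 0.048, limma), and its other probe set had the opposite sign. The first missed the unadjusted threshold in 14 of the 22 fits that each left out 1 array. Without FASD animal 2 the count at this age was 0, where all probe sets gave 3.17%. Without FASD animal 3 it was 2 (5.29% of all), and without FASD animal 4 it was 8, or 7.84% (7.29% of all). Markers of oligodendrocyte precursors, 6 of 8 with a probe set, had mean deviations of 0.13 to 0.41 in FASD animals at 5 months, against -0.17 to 0.05 in controls. Oligodendrocyte markers, 5 of 12 with a probe set, had 0.04 to 0.50, against -0.23 to 0.02. Both marker sets were thus higher in every FASD animal than in any control of that age, and their part in the trafficking values was not tested.

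Most trafficking genes had similar values at 2 years and at 5 months, and SYT6 was the main exception. At an unadjusted p under 0.05 for age, 2 years minus 5 months averaged over both exposures, there were 4 of the 102 probe sets, or 3.92%, beside 9.57% of all probe sets. Of the 4, 3 were higher and 1 lower at 2 years, beside 4.68% higher and 4.89% lower of all. At an adjusted p under 0.05 there were 0 (limma), against 16 of all probe sets, and 0 by the analysis of variance. The median change was 0.0085, against 0.0028 over all, and 100 of the 102 changes were smaller than 0.25, beside 96.8% of all probe sets. Within FASD animals 5 probe sets, or 4.90%, reached the unadjusted threshold, against 6.99% of all, with 4 higher and 1 lower, beside 4.71% higher and 2.28% lower of all. Within controls 3, or 2.94%, did, against 5.55% of all, with 2 higher and 1 lower, beside 1.78% higher and 3.77% lower of all. In both, 0 passed the adjusted threshold by limma and by the analysis of variance.

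SYT6 had the largest change with age, in a dim probe set. All of its values lay below the medians of the arrays, which ran from 7.93 to 8.06. SYT6 belongs to the SYT3, SYT5, SYT6 and SYT10 branch of the synaptotagmins and is known from the fusion of the sperm acrosome. In FASD animals it read 5.83, 5.86, 6.15, 5.95 and 6.07 at 2 years, against 6.41, 6.68, 6.26, 6.04 and 6.08 at 5 months. In controls it read 5.73, 6.78, 5.93, 5.54, 5.48 and 5.35 at 2 years, against a lowest, median and highest of 6.18, 6.45 and 7.45 at 5 months. Of the 6 controls at 2 years, 5 lay below every 5-month control, and animal 2 alone lay among them. The change over both exposures was -0.55 with a 95% interval of -0.87 to -0.23 (unadjusted p = 0.0016, adjusted p = 0.183, limma). It was -0.32 in FASD animals (exact permutation p = 0.040, but an unadjusted p of 0.17 by limma) and -0.78 in controls (exact permutation p = 0.024). The interaction, which tests that difference in size, was 0.46 with an unadjusted p of 0.15 (limma).

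The call for SYT6 turned on 1 animal. Without control animal 2 at 2 years the change was -0.65 with an adjusted p of 0.022 (limma), and within controls it was -0.98 with an adjusted p of 0.035 (limma). The interaction was then 0.65 (unadjusted p = 0.016, adjusted p = 0.758, limma). When limma weighted the arrays by their quality, which gave that animal a weight of 0.379, the adjusted p was 0.039 over both exposures and 0.049 within controls, and the interaction was 0.61 (unadjusted p = 0.022, adjusted p = 0.76, limma). No other synaptotagmin reached the unadjusted threshold for age, and the other 7 had changes between -0.08 and 0.13.

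RAB5C, a GTPase of early endosomes, had 2 probe sets that differed. MmunewRS.990.1.S1_at read 12.15, 12.06, 12.12, 11.73 and 12.12 in FASD animals at 2 years, against 11.98, 11.90, 11.75, 12.07 and 11.71 at 5 months. In controls it read 11.77, 12.03 and 12.30 (lowest, median and highest) at 2 years, against 11.43, 11.60 and 11.98 at 5 months. In FASD animals 3 of 5 lay above the 5-month range at 2 years, and in controls 4 of 6 did. The change was 0.25 (standard error 0.08, unadjusted p = 0.0033, adjusted p = 0.243, limma). The other probe set, MmuSTS.2339.1.S1_at, had -0.0011 (standard error 0.07).

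VPS35L is the scaffold of Retriever, which recycles integrins and other surface proteins. It read 8.09, 7.87, 8.07, 7.91 and 7.82 in FASD animals at 2 years, against 7.67, 7.81, 7.74, 7.79 and 7.63 at 5 months, and the 2 ages did not overlap. In controls it read 7.67, 7.82 and 7.94 at 2 years, against 7.56, 7.75 and 7.81 at 5 months, with overlap. The change was 0.16 over both exposures (standard error 0.05, unadjusted p = 0.0036, adjusted p = 0.245, limma) and 0.22 in FASD animals (exact permutation p = 0.0079, the smallest that 5 against 5 allow). Its partners in Retriever, VPS29 and VPS26C, had age changes of 0.05 and 0.03. RAB38, a relative of RAB32 in the making of pigment granules, had 0.19 (standard error 0.08, unadjusted p = 0.020, limma) and overlapped between ages in both exposures. With array weights RAB38 had 0.10 (unadjusted p = 0.20, limma).

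**Figure D3:**
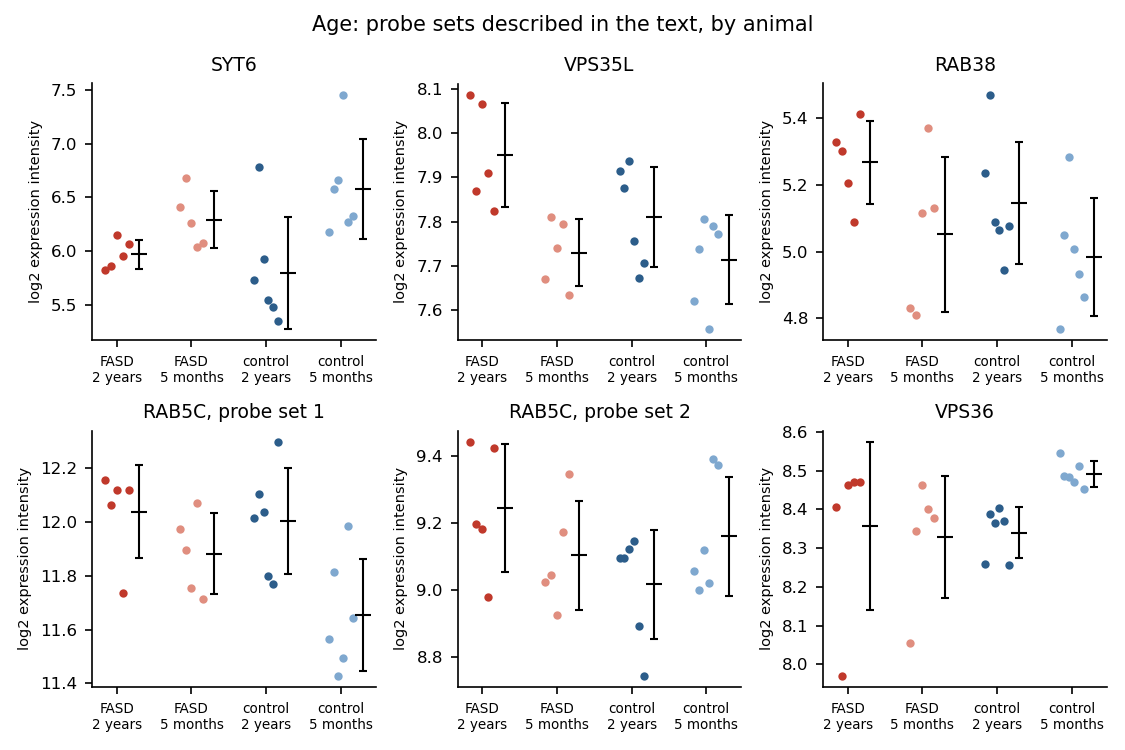
Log2 expression intensity, 1 point per animal with the mean and SD of each group, for SYT6, VPS35L, RAB38, both RAB5C probe sets and VPS36. The 2-year groups stand left of the 5-month groups of the same exposure. The means of SYT6 are lower at 2 years in both exposures, with control animal 2 apart from its group, VPS35L does not overlap between ages in FASD animals, VPS36 does not overlap between ages in controls, and only the first RAB5C probe set has higher means at 2 years in both exposures.

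In FASD animals 2 trafficking probe sets did not overlap between the ages, where 1.31% of all probe sets did not, and in controls 1 did not, where 0.434% did not. In FASD animals these were VPS35L and SNX15, a nexin with a microtubule-interacting domain. SNX15 read 8.17, 7.96, 8.01, 8.01 and 8.04 at 2 years, against 7.92, 7.92, 7.84, 7.72 and 7.92 at 5 months, a change of 0.17. In controls the probe set was VPS36, which read 8.26, 8.37 and 8.40 (lowest, median and highest) at 2 years, against 8.45, 8.48 and 8.55 at 5 months. Its change was -0.15 (exact permutation p = 0.0022, the smallest that 6 against 6 allow). In FASD animals VPS36 had a change of 0.03, with overlap. Without FASD animal 2 at 2 years that change was 0.12 (unadjusted p = 0.084, limma), and the VPS36 interaction was 0.28 (unadjusted p = 0.0061, limma), against 0.18 (unadjusted p = 0.14, limma) with all animals. The 5-month controls are the same animals as in the alcohol comparison of VPS36 above, so the 2 differences are not separate evidence.

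The interaction asks whether the alcohol difference itself differed between 2 years and 5 months. At an unadjusted p under 0.05 it held for 3 trafficking probe sets, or 2.94%, against 3.00% of all, with 1 positive and 2 negative, beside 2.11% and 0.886% of all. At the adjusted threshold 0 passed by limma or by the analysis of variance (lowest adjusted p = 1.00, limma). Precision was lowest here, with a median standard error of 0.126, and the interval lay within 0.25 of zero for only 9 of the 102 probe sets. The 3 were RAB3IP, RAB23 and SNX31, and each kept an unadjusted p under 0.05 in all 22 fits that left out 1 array.

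RAB3IP activates RAB8 and is known from the growth of cilia. It read 9.48, 9.10, 9.72, 9.51 and 9.72 in FASD animals at 2 years, against 8.17, 9.03 and 9.65 in controls. At 5 months it read 8.28, 9.10, 9.86, 8.41 and 9.09 in FASD animals, against 8.73, 9.51 and 10.29 in controls. The FASD mean was 0.48 above the control mean at 2 years and the difference was -0.53 at 5 months, with overlap at both ages. The interaction was 1.02 (standard error 0.39, unadjusted p = 0.017, limma), and RAB3IP also had the widest spread among animals of 1 group, with a residual SD of 0.508 against a median of 0.146 for trafficking probe sets.

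RAB23 read 5.34, 5.23, 5.42, 5.43 and 5.64 in FASD animals at 2 years, against 5.41, 5.71 and 5.94 in controls, and 5.92, 5.42, 5.46, 5.55 and 5.67 in FASD animals at 5 months, against 5.23, 5.41 and 5.78 in controls. Its interaction was -0.43 (standard error 0.16, unadjusted p = 0.012, limma). SNX31 read 4.62, 4.64, 4.10, 4.43 and 4.72 in FASD animals at 2 years, against 4.44, 4.71 and 4.81 in controls, and 5.21, 4.79, 4.54, 4.67 and 4.82 in FASD animals at 5 months, against 4.40, 4.55 and 4.71 in controls. Its interaction was also -0.43 (standard error 0.16, unadjusted p = 0.013, limma). Both genes had a higher FASD mean at 5 months and a lower one at 2 years, and their groups overlapped at each age. Both probe sets were dim, like that of SYT6, with all values below the medians of the arrays.

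**Figure D4:**
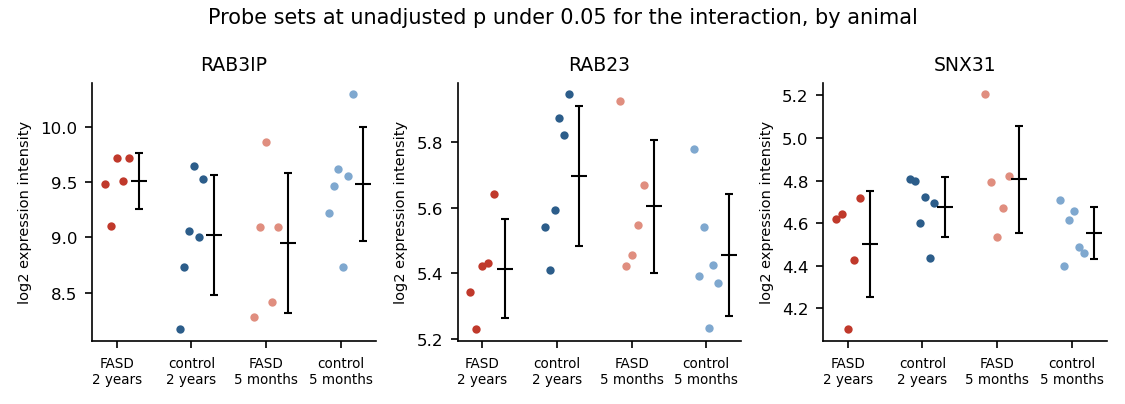
Log2 expression intensity of RAB3IP, RAB23 and SNX31, 1 point per animal with the mean and SD of each group. The FASD mean of RAB3IP is above the control mean at 2 years and below it at 5 months, while RAB23 and SNX31 show the reverse, with overlapping points in each pair.

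Partners of these genes that the naming rule leaves out were read from lists of the same pathways, with unadjusted p and 0 past the adjusted threshold in any list for alcohol or age (limma). Over all probe sets 8.44% were at an unadjusted p under 0.05 for alcohol, 2.43% higher and 6.01% lower in FASD animals, and 9.57% for age, 4.68% higher and 4.89% lower at 2 years. Of 14 probe sets of the release machinery 1 was lower in FASD animals, SYPL1, a relative of synaptophysin, at -0.13, and 1 was higher at 2 years, the vesicle protein SV2C, at 0.52. Of 17 probe sets of the RAB cycle 3 were lower and 0 higher in FASD animals, among them RABEP1, which binds RAB5 on early endosomes, at -0.19, and RABGGTB, a subunit of the enzyme that attaches the lipid anchor of RABs, at -0.15. For age 2 of the 17 were higher, RILPL1 at 0.31 and TBC1D5, which inactivates RAB7 on retromer endosomes, at 0.19, and 2 were lower. Of 17 probe sets of the endocytic coat 0 reached the unadjusted threshold for alcohol and 3 did for age, 2 higher and 1 lower, among them endophilin A1 (SH3GL2) at 0.20 and EHD3 at 0.26. Other SNAREs had 0 of 11 for alcohol and 1 for age, ESCRT partners 0 of 14 and 1, and the exocyst 0 of 8 for both.

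The spread among animals of 1 group was no wider for trafficking genes than for the rest. The residual SD had a median of 0.146 over the 102 probe sets, against 0.158 over all, and exceeded 0.3 in 4 of them, RAB3IP, VPS13C, RAB1B and SYT6, or 3.92%, against 7.84% of all. RAB1B, a GTPase of the step between endoplasmic reticulum and Golgi, had an alcohol difference of 0.01 with a 95% interval of -0.34 to 0.37, so a moderate difference in that gene was not detectable here. VPS72 matches the naming rule but is a chromatin protein of the nucleus, and its changes were 0.03 for alcohol and -0.06 for age.

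**Figure D5:**
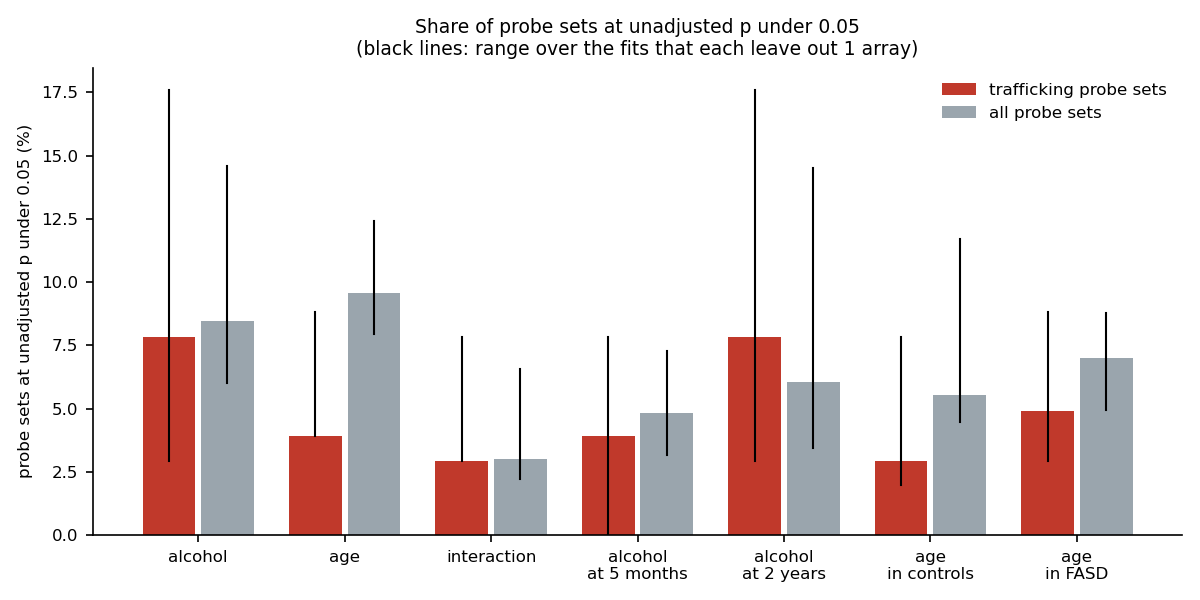
Percentage of probe sets at an unadjusted limma p under 0.05 in each comparison, for the 102 trafficking probe sets (red) and all 11512 (grey). Black lines span the fits that each leave out 1 array. The shares of trafficking probe sets, 2.94% to 7.84%, exceed those of all probe sets only for alcohol at 2 years, and the ranges overlap throughout. The ranges do not compare the shares fit by fit. For age the share of trafficking probe sets was below that of all probe sets in each of these fits.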

How the data were processed

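RNA of 22 hippocampi was measured on 1-colour Affymetrix rhesus macaque arrays. The deposited log2 intensities were made by the authors with RMA, a method that subtracts background, brings all arrays to a common distribution and combines the probes of a set. The authors then kept annotated and detected probe sets. The version of RMA was not found in the labels or the paper. RMA values of dim probe sets are compressed, so their changes are understated. Columns of 2 discarded arrays were empty and were not analysed here. Both came from FASD animals, of different ages, and no control array was discarded. The paper states that the authors removed them as strong outliers in a principal component analysis. Without their values, the effect of this removal on the comparisons could not be tested. The labels give the younger one replicate number 2, which FASD animal 2 of that age also carries, while the paper gives it another number.

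Symbols came from the platform annotation (8730 of 11512 probe sets with 1 symbol, 88 with several, 2694 with none). A fit with 1 mean per group was made with limma 3.58.1 in R 4.3.3, moderated and adjusted by Benjamini-Hochberg over all 11512 probe sets, and was tested on simulated data. Single genes were also tested by exact permutation of animals, two-sided. The plots used matplotlib 3.10.9 and Python 3.11.15. The members, lists and tests were chosen with earlier results of these data known. Named probe sets were the 10 of lowest p for alcohol and for age, the 4 of lowest p in each other comparison, the lowest of each role for alcohol and for age, any past the adjusted threshold, a fixed set of synaptic and endosomal genes, and further probe sets of the same genes. UNC13B, VPS29, VPS26C, SYT3, RAB30 and RAB1B were named outside this rule, after their values were seen, and so were members named only as part of a role. The alternatives were the analysis of variance without moderation, robust variances with a trend on intensity, a single probe set per symbol, brighter probe sets only, centring, quantile normalization, array weights, an additive model, a replicate block and leaving out each array. The number of arrays limits the precision, and depth has no counterpart here. No sequence is shown, since the reference held gene names only.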

Additional observations from a re-analysis of the deposited data

Results flagged for a closer look

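In 44 described probe sets, 176 groups of 5 or 6 animals were looked at for a single value far from the others, and 15 values were found, where chance gives about 1 in 20 groups. These are given as values.

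FASD animal 2 at 5 months held 3 of them. VPS13B was 6.54 there, against 7.06 to 7.20 in the other FASD animals of that age, VAMP5 was 8.29, against 7.61 to 7.80, and the second SNX18 probe set was 8.46, against 8.19 to 8.23. FASD animal 2 at 2 years also held 3, with STX10 at 7.95, against 7.79 to 7.81, SYT1 at 12.80, against 13.08 to 13.13, and VPS36 at 7.97, against 8.41 to 8.47. Control animal 2 at 2 years held 3 as well, with RAB34, a Golgi and cilium GTPase, at 8.39, against 7.93 to 8.10, STXBP3 at 11.13, against 10.74 to 10.86, and VPS9D1 at 9.61, against 9.92 to 10.08.

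FASD animal 4 at 2 years had RAB5C at 11.73, against 12.06 to 12.15. Control animal 5 at 2 years had SNX16 at 5.78, against 5.05 to 5.31, and UNC13D at 5.92, against 6.08 to 6.17. Control animal 6 at 2 years had SYT1 at 12.85, against 13.05 to 13.16. At 5 months control animal 1 had STX5 at 8.18, against 8.39 to 8.48, and control animal 4 had the other VPS9D1 probe set at 8.65, against 8.34 to 8.45.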

How the results depend on the processing

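Probe sets named for a low p kept their sign in that comparison under every alternative run. The signs of other comparisons were not all followed. Without FASD animal 2 at 5 months, VPS36 for age in FASD animals went from 0.03 to -0.04, and SNX31 for alcohol from 0.04 to -0.01. The median over the trafficking probe sets also changed sign. For alcohol at 5 months it was -0.013 as reported and positive with centring, quantile normalization and array weights. The small medians for alcohol, age and age in controls also took the other sign under some alternatives or without some arrays. With array weights the counts at unadjusted p under 0.05 were 14 for alcohol (1674 of all probe sets, against 972 with equal weights), 8 for age, 10 for the interaction, 16 for alcohol at 2 years, 7 for age in controls and 8 for age in FASD animals, with 1 probe set, SYT6, past the adjusted threshold for age and 1 for age in controls. Of all probe sets, array weights gave 14.5% for alcohol, 14.1% for age, 6.29% for the interaction and 10.6% for alcohol at 2 years. They gave 11.8% for age in controls and 9.37% for age in FASD animals. For alcohol at 5 months array weights gave 5 trafficking probe sets, or 4.9%, beside 10.1% of all. Of the 4 there with equal weights only RAB5C stayed at the threshold, and RAB32 and SNX31 had unadjusted p of 0.062 and 0.072 (limma). Among the 58 trafficking probe sets at or above the median intensity the counts were 1 for alcohol, age, interaction, alcohol at 5 months, age in controls and age in FASD animals, and 2 for alcohol at 2 years. The 1 for alcohol was RAB11FIP2 and the 1 for age was RAB5C, and SYT6 was not in this set. The shares of all such probe sets lay between 2.52% for the interaction and 10.3% for age. With 1 probe set per symbol the count for alcohol at 2 years was 5 (5.91% of all). Quantile normalization gave 13 for alcohol, a median of 0.0243 for alcohol at 5 months and one of 0.0183 for the interaction, and centring gave medians of 0.0223 and 0.0113. The causes were not tested.

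Leaving out 1 array gave counts from 3 (without control animal 5 at 2 years) to 18 (without control animal 2 at 2 years) for alcohol, from 4 to 9 (without FASD animal 2 at 2 years) for age, from 3 to 8 (without control animal 2 at 2 years) for the interaction, from 0 (without FASD animal 2 at 5 months) to 8 (without FASD animal 4) for alcohol at 5 months, from 3 to 18 for alcohol at 2 years, from 2 to 8 (without control animal 2 at 2 years) for age in controls, and from 3 to 9 (without FASD animal 2 at 2 years) for age in FASD animals. The alcohol count was also 4 without control animal 2 at 5 months, and 5 without FASD animal 2 or 5 or control animal 3 at 5 months, or without FASD animal 2 or control animal 4 at 2 years. The interaction count was also 6 without FASD animal 2 at 2 years and 5 without FASD animal 1 at 2 years or FASD animal 4 or 6 at 5 months, and the count for age in FASD animals was 8 without FASD animal 4 at 5 months and 3 without FASD animal 2 at 5 months or FASD animal 1, 3 or 6 at 2 years. Counts at the adjusted threshold were 0 to 1 for age and for age in controls, and 0 for the other comparisons. Over all probe sets the alcohol count lay between 689 and 1679 in these fits. The share of all probe sets lay between 5.99% and 14.6% for alcohol, 7.93% and 12.4% for age, and 2.2% and 6.56% for the interaction. It lay between 3.17% and 7.29% for alcohol at 5 months and between 3.43% and 14.5% at 2 years. For age it was 4.47% to 11.7% in controls and 4.93% to 8.77% in FASD animals.

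With the replicate number as a block the counts were 9 for alcohol, 5 for age and 5 for alcohol at 2 years, beside 8.64%, 10.4% and 6.01% of all probe sets. In these fits 0 trafficking probe sets passed the adjusted threshold. The labels do not say whether equal numbers pair animals. The paper alternated age-matched cases and controls at sacrifice but does not tie that order to these numbers. It also states that a dam might receive ethanol in one breeding cycle and sucrose in another, and that groups of dams shared a male. Whether any of these animals share a parent was not examined, and the tests treated them as independent. Over the 30 pairs with the same number, r of the deviations lay between -0.33 and 0.389, with 13 over 0.1. Of the 22 arrays, 4 were closest to one of their own number. Such correlations cannot decide whether the animals were paired.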
